A study of Mus musculus with 8 samples.

Results

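The 5-hydroxymethylcytosine (5hmC) peaks described here are those at 3 imprinted loci of the mouse, named for the gene pairs H19 and Igf2, Dlk1 and Meg3, and Ube3a and Snrpn. A peak was counted as a member when it overlapped by at least 1 bp one of 3 fixed intervals of the build mm9, which were chr7:149740000-149870000 for H19 and Igf2, chr12:110670000-111020000 for Dlk1 and Meg3, and chr7:66300000-67400000 for Ube3a and Snrpn. These held 79 of the 393283 peaks in the 8 deposited lists, with 25 at H19-Igf2, 53 at Dlk1-Meg3 and 1 at Ube3a-Snrpn. Position alone decided which peaks were members, but the loci were chosen with earlier results of these data known. The peaks came from hippocampal DNA of C57BL/6 mice, in which 5hmC had been tagged through an added glucose carrying biotin and the tagged fragments captured and sequenced. Young mice (6 weeks) and aged mice (18 months) lived either in standard cages (control) or, for 4 weeks and 5 h a day, had access to a roomier cage furnished with toys, tunnels and an exercise wheel (enriched). Crossing age with housing gives 4 groups (young control, young enriched, aged control, aged enriched) of 2 samples. Whether samples of 1 group are from different mice is not stated in the labels. All p-values thus describe the spread of these samples, and the spread within a group could be technical only. The permutation tests of 4 samples against 4 ignored the other factor, so their spread also holds differences by that factor.

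The lists ran from 25548 to 78980 peaks, and peaks covered from 0.556% to 3.51% of the autosomes, with both aged enriched lists lowest. Aged enriched replicate 2 stood apart by narrow peaks (median 430 bp, where all others had 650 to 952 bp). The main interval and window differences that rest on it are therefore also given without it. Counts of regions by group and values under filters on peaks are given only with it. Read numbers are unknown here, so counts at a locus are set against the length of the list, as peaks per 10000 peaks. A stretch without a peak is one where none was called, which is not the same as one shown to lack 5hmC. Peak lists hold no expression values, so the tissue label was not checked against marker genes.

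At an imprinted locus, one parent's copy of a gene is active and the other is silent, and the choice is kept by DNA methylation laid down on one parental copy at an imprinting control region. 5hmC is made from 5-methylcytosine by the TET enzymes and is abundant in neurons, and this capture of fragments reads both parental copies together. H19 is a noncoding RNA made from the maternal copy, and Igf2, a growth factor, is made mainly from the paternal copy. Dlk1, a membrane protein of the Notch ligand family, is paternally expressed, while the noncoding RNA Meg3 is maternally expressed. Ube3a, a ubiquitin ligase, is expressed from the maternal copy in neurons, where an antisense transcript from the paternal copy silences it, and Snrpn, which encodes a spliceosomal protein, is paternally expressed.

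The capture needs modified cytosines, which in mammals lie mostly in CpG dinucleotides. The promoters are therefore shown to let the CpG supply just before the listed starts be compared. Promoters were matched by symbol in the RefSeq table of the later build GRCm38.p6, which listed 5 of the 6 genes (none was used for H19). The 250 bases before each start are printed 5′ to 3′ with every CG in capitals, taking for each gene the listed promoter with the most CG. CG reads the same on both strands, and 92.1% of the 32841 promoters of that length held at least 1. In GRCm38.p6 these stretches are chr7:142658805-142659054 on the minus strand for Igf2, chr12:109452573-109452822 on the plus strand for Dlk1 and chr12:109540746-109540995 on the plus strand for Meg3. They are chr7:59228500-59228749 on the plus strand for Ube3a and chr7:60047979-60048228 on the minus strand for Snrpn.
Igf2: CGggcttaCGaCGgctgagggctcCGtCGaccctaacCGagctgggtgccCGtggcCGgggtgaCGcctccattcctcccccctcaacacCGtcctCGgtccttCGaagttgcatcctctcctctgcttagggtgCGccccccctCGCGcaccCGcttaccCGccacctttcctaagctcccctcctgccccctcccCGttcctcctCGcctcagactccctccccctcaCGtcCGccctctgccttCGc
Dlk1: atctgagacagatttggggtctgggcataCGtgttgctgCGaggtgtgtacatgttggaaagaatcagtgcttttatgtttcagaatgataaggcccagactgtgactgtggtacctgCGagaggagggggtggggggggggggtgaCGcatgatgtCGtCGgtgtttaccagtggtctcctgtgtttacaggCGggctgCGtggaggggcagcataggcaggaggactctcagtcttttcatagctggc
Meg3: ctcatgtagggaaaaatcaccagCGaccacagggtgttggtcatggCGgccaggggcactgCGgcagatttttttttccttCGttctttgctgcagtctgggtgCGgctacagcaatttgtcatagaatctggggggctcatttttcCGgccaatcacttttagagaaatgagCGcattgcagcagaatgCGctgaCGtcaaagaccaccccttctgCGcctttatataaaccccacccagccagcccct
Ube3a: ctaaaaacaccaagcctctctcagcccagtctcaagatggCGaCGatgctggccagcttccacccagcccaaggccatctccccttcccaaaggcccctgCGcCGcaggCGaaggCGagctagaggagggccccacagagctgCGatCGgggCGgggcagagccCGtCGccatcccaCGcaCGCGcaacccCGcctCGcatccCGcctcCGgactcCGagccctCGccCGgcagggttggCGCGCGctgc
Snrpn: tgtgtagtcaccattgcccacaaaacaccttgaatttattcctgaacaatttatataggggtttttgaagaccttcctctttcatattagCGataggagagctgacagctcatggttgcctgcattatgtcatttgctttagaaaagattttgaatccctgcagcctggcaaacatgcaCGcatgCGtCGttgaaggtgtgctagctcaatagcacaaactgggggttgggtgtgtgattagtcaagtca
Igf2 had 22 CG and Ube3a had 24, where 85.2% and 88.0% of all promoters had fewer. Meg3 had 10, Dlk1 had 8 and Snrpn had 4, beside a median of 6. Igf2 and Snrpn each had 4 listed promoters, Meg3 had 2, and Dlk1 and Ube3a had 1. The highest of several is thus set against single promoters, which favours genes with more of them. Promoters were looked up for the member symbols only, so any listed under another symbol, such as Snurf beside Snrpn, were not counted. These counts do not show the CpG supply of a whole gene or of an imprinting control region. The peak coordinates are in mm9, so no peak was placed on these promoters, and the peaks below are located by interval and not by exon, intron or untranslated region. In the RefSeq gene table the order along the chromosome is H19, Igf2 and Ins2 (insulin), then Dlk1, Meg3, Rtl1, Rian and Mirg on chromosome 12, and Ube3a, the antisense host transcript Snhg14 and Snrpn on chromosome 7.

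The Ube3a-Snrpn interval was almost empty of peaks. Over its 1100 kb, only young enriched replicate 1 had a peak, at chr7:66531390-66531963, 574 bp wide with a score of 57.2. That score stood at the 22.4th percentile of its own list. Scores are the authors' own, as deposited, and are read here only within a list. The other 7 lists had no peak, while the same lists held 10.4 to 32.1 peaks per Mb over the autosomes. In the 1 list with a peak the density was 0.909 peaks per Mb, which was 0.0389 times that of the autosomes.

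The single peak broke a long stretch without peaks. After it, no list had a peak for 3677 kb, from chr7:66531964 to chr7:70208493, which was the 16th longest such stretch among 156641 on the autosomes (median 3035 bp). Before it, none had a peak for 472 kb. In a flank as long as the interval, 17 peaks lay before it, from 7 of the 8 lists, and 0 after it. Of 2158 autosomal windows of the same length, 8.34% had no peak in any list and 11.4% had 1 or none, beside a median of 113. The 4 tests of this interval, by age and by housing, each gave an exact two-sided permutation p of 1, and with 1 peak none could have passed.

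**Figure D1:**
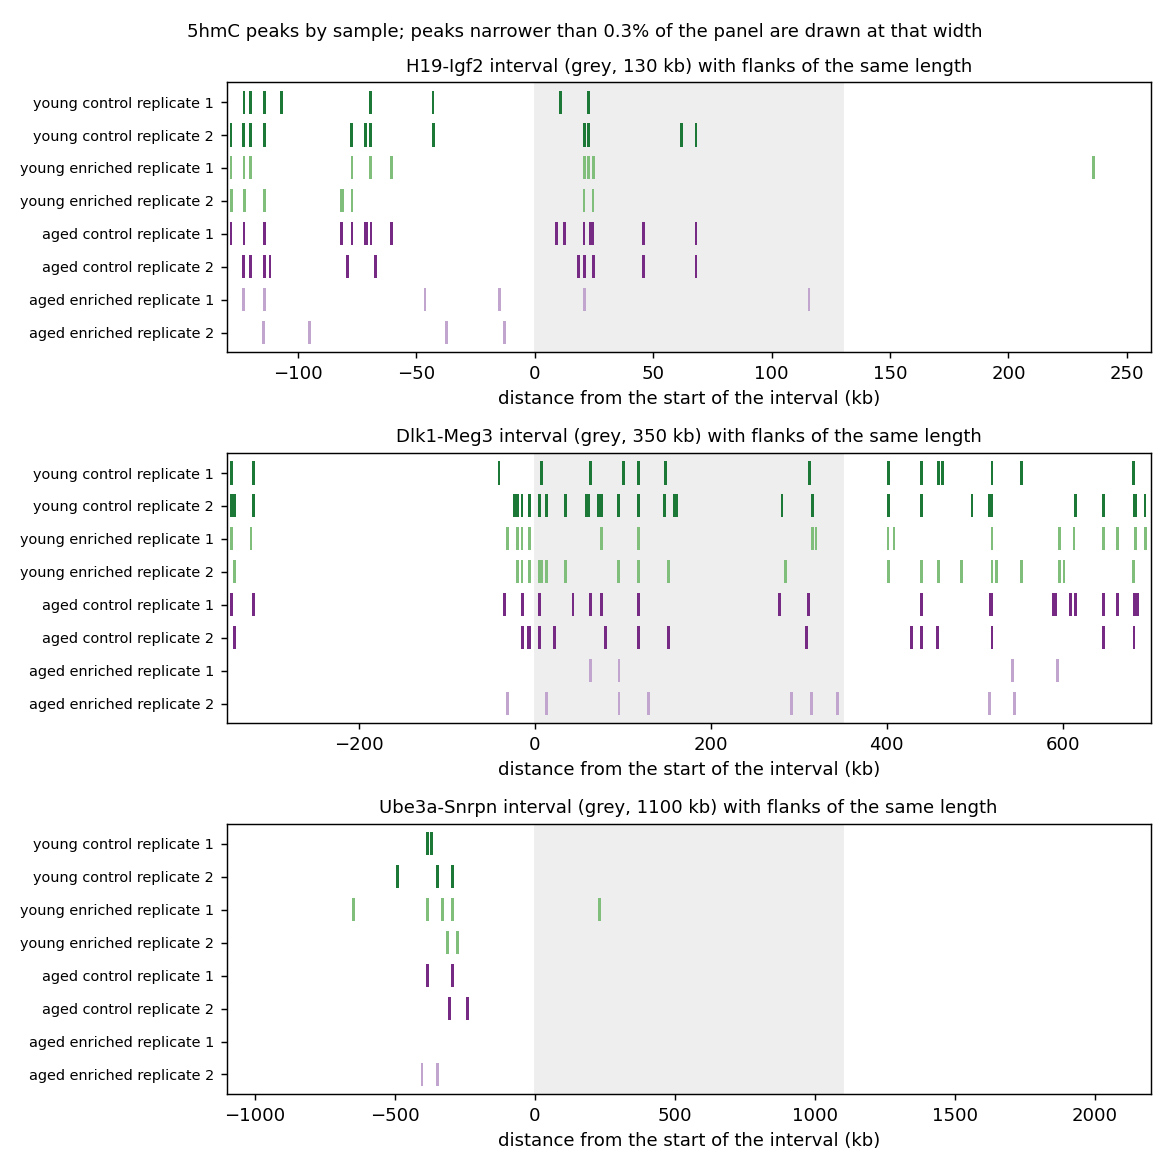
Peaks of each sample (rows, coloured by group) by distance from the start of each interval in kb, with the interval in grey and a flank of the same length on each side. The H19-Igf2 peaks gather near 20 kb, the Dlk1-Meg3 peaks leave a gap of 116 kb, and the Ube3a-Snrpn interval holds 1 peak.

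At H19-Igf2, aged control samples had the most peaks. Aged control lists had 7 and 5 peaks in the interval, aged enriched lists 2 and 0, young control lists 2 and 4, and young enriched lists 3 and 2. Both aged control samples lay above each of the other 6. Per 10000 peaks, the values were 1.18 and 1.32 in aged control, 0.783 and 0 in aged enriched, 0.458 and 0.506 in young control, and 0.522 and 0.336 in young enriched samples. The aged control mean was 1.25 ± 0.0951 and the aged enriched mean 0.391 ± 0.554 (SD, n = 2 each). The groups did not overlap, but how often they do not overlap in other stretches of this length was not counted. An exact permutation test of 2 against 2 cannot go below p = 0.333, so none was run on this difference, and housing within an age was tested only over 1 Mb windows, with a spread shared by the 4 groups. Young control and young enriched samples overlapped, with means of 0.482 ± 0.0346 and 0.429 ± 0.131 (SD, n = 2 each).

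Coverage of the interval gave the same order of groups in aged mice. Peaks covered 4.45% and 3.14% of it in aged control samples, where 2.38% and 1.27% of the autosomes were covered. In aged enriched samples they covered 0.928% and 0%, beside 0.743% and 0.556% of the autosomes. Young samples had 1.39% and 2.88% (control) and 1.98% and 1.52% (enriched), each below the autosomal value of the same list. Density was 2.24 and 2.49 times the autosomal density in aged control samples, 1.48 and 0 times in aged enriched samples, and 0.637 to 0.988 times in the 4 young samples. Aged enriched replicate 1 thus also lay above the autosomes, and its ratio of densities lay above that of each young sample. Its coverage of 0.928% lay below that of each young sample. It rested on 2 peaks, the weaker with a score of 50.8 at the 4.92th percentile of its list.

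By age and by housing, the H19-Igf2 values were compared over 4 samples against 4, in a design that could hardly call a difference. Each test left the other factor aside, so the SD of aged samples also holds the gap between aged control and aged enriched samples. Adjustment was over the 12 tests of 3 intervals, 2 measures and 2 contrasts, and the smallest p that 4 against 4 allows is 0.0286. A single test at that p has an adjusted p of 0.343, and 7 of the 12 would have to reach it together for any to pass, so an adjusted p above the threshold says little about an interval. Aged samples had 0.820 ± 0.592 and young samples 0.456 ± 0.0841 peaks per 10000 (SD, n = 4 each; exact two-sided permutation p = 0.314, adjusted p = 0.743). Enriched samples had 0.410 ± 0.329 and control samples 0.865 ± 0.446 (SD, n = 4 each; exact permutation p = 0.20, adjusted p = 0.686). By coverage, enriched samples had 1.11% ± 0.855 and control samples 2.96% ± 1.26 (SD, n = 4 each; exact permutation p = 0.0857, adjusted p = 0.686). This coverage difference of −1.86 points shrank to −0.363 in equally long lists (the 25548 highest-scoring peaks of each) and to −0.370 with a score of at least 100. The housing difference per 10000 peaks, −0.455 with all peaks, was −0.196 in equally long lists and −0.614 with a score of at least 100. By age, coverage was 2.13% ± 2.03 in aged samples, and in young samples it was 1.94% ± 0.677 (SD, n = 4 each; exact permutation p = 0.886, adjusted p = 1). Without aged enriched replicate 2, the other 3 aged samples all lay above the 4 young ones per 10000 peaks, by 0.638 on average (exact permutation p = 0.0286, adjusted p = 0.343). Against 0.364 with all samples, the same difference was 0.244 without aged control replicate 1 and 0.199 without aged control replicate 2 (exact permutation p = 0.543 for each). It was 0.196 in equally long lists and 0.112 with a score of at least 100. Without aged enriched replicate 2 the housing difference was −0.318 per 10000 and −1.49 points of coverage. The age difference in coverage turned direction without aged control replicate 1 (−0.589 points) or without aged control replicate 2 (−0.151), from 0.185 points with all samples.

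**Figure D2:**
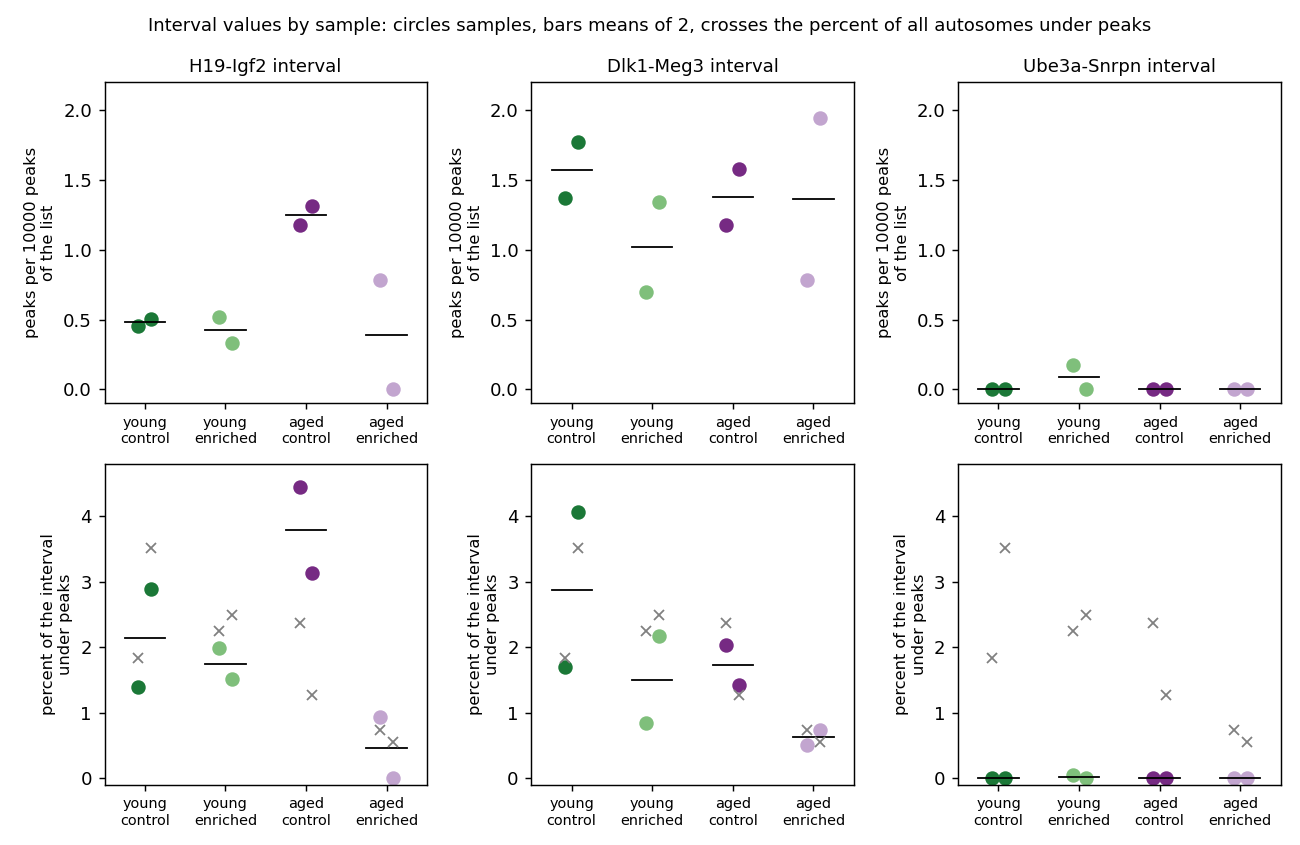
Peaks per 10000 peaks of the list (top) and percent of the interval under peaks (bottom) in each sample, by group, with bars at the means of 2 samples and crosses for the percent of all autosomes under peaks. Aged control samples stand highest at H19-Igf2 (1.18 and 1.32 per 10000), and 7 of 8 samples are at 0 at Ube3a-Snrpn.

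The H19-Igf2 peaks merged into 11 regions, of which 3 neighbours held most of them. Regions were built by joining overlapping peaks of all lists (1 bp or more), which gave 156744 over the genome. The 3 neighbours spanned 4789 bp, chr7:149760325-149765113, and held 14 of the 25 peaks. Every list except aged enriched replicate 2 had a peak there. The most shared region of the interval, chr7:149760325-149761533, had a peak in 6 samples and was missing in young control replicate 1 and aged enriched replicate 2. Its score percentile was lowest in aged enriched replicate 1 (36.2) and reached 96.1 in aged control replicate 2, the highest of all 79 members. The next region, chr7:149762037-149763834, was the widest of the interval at 1798 bp. It had a peak in both young control samples, young enriched replicate 1 and aged control replicate 1, at percentiles of 27.3 to 79.8. The third, chr7:149763896-149765113, had a peak in both young enriched and both aged control samples, at percentiles of 6.51 to 62.4.

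Further along the interval the peaks thinned out. The region chr7:149807676-149808475 had a peak in young control replicate 2 and both aged control samples, and chr7:149785413-149786342 in both aged control samples only (scores 126 and 59.7). With chr7:149763896-149765113, these made 3 of 11 regions with a peak in each aged control list and in no aged enriched list, a pattern held by 5.60% of all merged regions. The remaining 6 regions each had a peak in 1 sample. The longest stretch inside the interval with no peak in any list was 47.1 kb, chr7:149808476-149855528. Beyond the last peak, at chr7:149855529-149856123 in aged enriched replicate 1, the next one lay 119 kb on, outside the interval.

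At Dlk1-Meg3, every sample had peaks, at about the density of the autosomes. Lists held 6 and 14 peaks in young control, 4 and 8 in young enriched, 7 and 6 in aged control and 2 and 6 in aged enriched samples. Per 10000 peaks these were 1.37 and 1.77, 0.696 and 1.35, 1.18 and 1.58, and 0.783 and 1.95 in the same order. All 4 groups overlapped but for young enriched and young control, where the higher enriched value (1.35) lay just below the lower control value (1.37). How often these groups do not overlap in other stretches of this length was not counted either. Relative to the autosomes the density ran from 0.489 to 1.25 times in young and from 0.551 to 1.37 times in aged samples. Peaks covered 1.69% and 4.06% of the interval in young control, 0.846% and 2.17% in young enriched, 2.04% and 1.42% in aged control and 0.503% and 0.741% in aged enriched samples. The aged enriched samples were the 2 lowest by coverage, as they were over the autosomes.

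The Dlk1-Meg3 values by age and housing were compared in the same way, with the same limit on what could pass. Per 10000 peaks, aged samples had 1.37 ± 0.502 and young samples 1.30 ± 0.446 (SD, n = 4 each; exact permutation p = 0.80, adjusted p = 1). This age difference of 0.0756 was 0.587 in equally long lists and 0.670 with a score of at least 100 (exact permutation p = 0.40 and 0.457). That score kept 12 of the 53 peaks, among them all 6 of aged enriched replicate 2 and none of another enriched sample. In aged enriched replicate 2 a score of 103 stood at only the 30.1th percentile. Values under this filter were not computed without that sample. Enriched samples had 1.19 ± 0.579 and control samples 1.48 ± 0.256 (SD, n = 4 each; exact permutation p = 0.371, adjusted p = 0.743). Aged samples had a coverage of 1.17% ± 0.693, against 2.19% ± 1.36 for young samples (SD, n = 4 each; exact permutation p = 0.229, adjusted p = 0.686). Enriched samples had 1.06% ± 0.748, against 2.30% ± 1.20 for control samples (SD, n = 4 each; exact permutation p = 0.114, adjusted p = 0.686). The age difference per 10000 peaks turned to −0.125 without young enriched replicate 1 and to −0.116 without aged enriched replicate 2. Without that sample the other differences, all of which had the same sign as before, were −0.535 per 10000 by housing, −0.873 points of coverage by age and −1.13 by housing. The housing difference per 10000, −0.284 with all samples, was −0.118 without young enriched replicate 1, −0.147 without aged enriched replicate 1 and −0.185 without young control replicate 2. Without young control replicate 2, which had the highest coverage here, the coverage difference fell in size from −1.02 to −0.393 points by age and from −1.24 to −0.651 by housing. In equally long lists these were 0.0223 and −0.711 points, and with a score of at least 100 they were −0.0631 and −0.407.

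The Dlk1-Meg3 peaks fell into 2 blocks. The first block, chr12:110674805-110831647, held 41 peaks in 20 regions, from all 8 lists. Then no list had a peak for 116 kb, chr12:110831648-110947819, a stretch longer than 98.6% of those on the autosomes. The second block, chr12:110947820-111014427, held 12 peaks in 11 regions, from 7 lists, with none in aged enriched replicate 1. Only 1 region of the second block had a peak in more than 1 sample, chr12:110985728-110986528, in young control replicate 2 and young enriched replicate 1.

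In the first block, the most shared region was chr12:110787465-110788706, called in 6 samples, namely all but the pair of aged enriched lists. Its scores were 107 and 128 in young control, 70.2 and 66.8 in young enriched, and 122 and 65.8 in aged control lists. Within their lists these stood at percentiles of 80.6 and 81.0, 48.2 and 40.8, and 84.5 and 47.8, in the same order. The region chr12:110674805-110676056 had a peak in young control replicate 2, young enriched replicate 2 and both aged control samples, at percentiles of 44.8 to 90.7. These were the 2 of 31 regions called in each aged control list and no aged enriched list (5.60% of all regions).

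The widest member region showed the reverse. It spanned 2683 bp at chr12:110764224-110766906 and had a peak in both aged enriched samples, in young control replicate 2 and in young enriched replicate 2, but in neither aged control sample. It was 1 of 31 regions with peaks in both aged enriched and no aged control samples, a pattern found in 0.561% of all regions. Its scores were 54.9 and 120 in the aged enriched lists (27.6th and 55.6th percentile). They were 164 in young control replicate 2 (89.4th percentile) and 50.8 in young enriched replicate 2 (2.84th percentile), the last close to the floor of its list. The next most shared regions were chr12:110732966-110734311 and chr12:110682689-110683503, each with a peak in 3 samples. The first of them had a peak in young control replicate 1, aged control replicate 1 and aged enriched replicate 1, and the second in young control replicate 2, young enriched replicate 2 and aged enriched replicate 2.

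**Figure D3:**
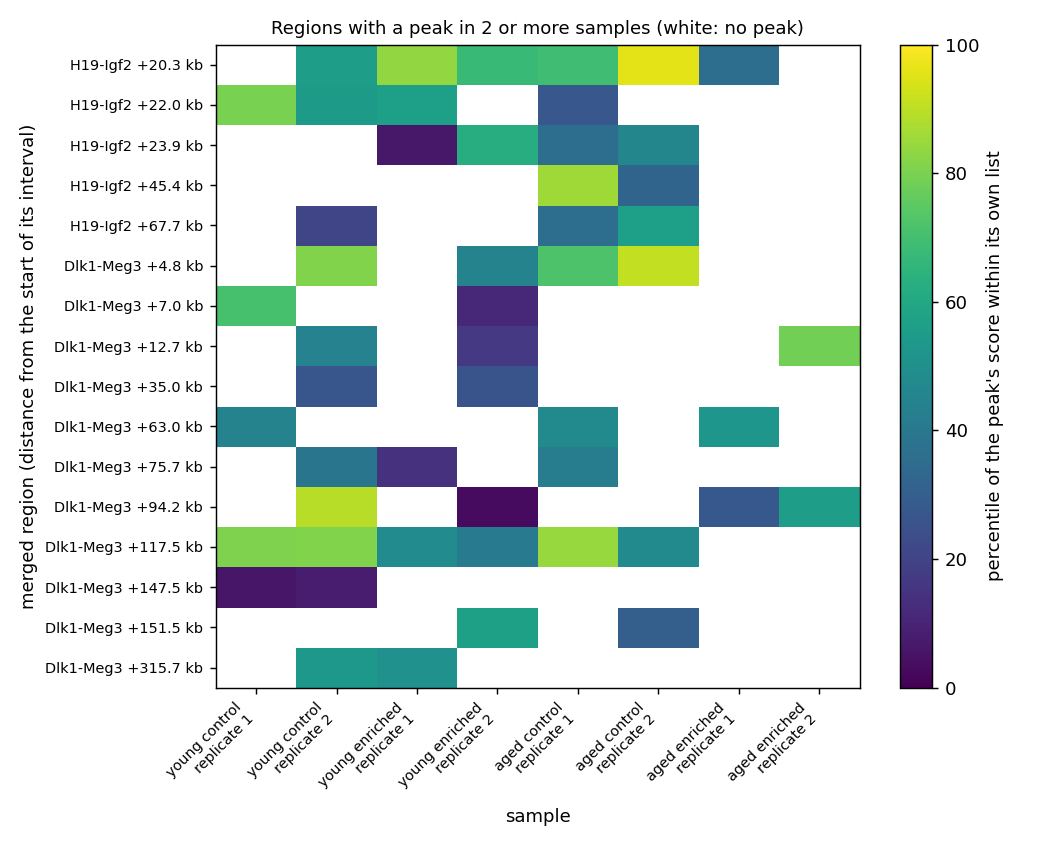
Percentile of each peak's score within its own list (colour) for the 16 merged regions with a peak in 2 or more samples, by sample, with white for no peak. No region is filled in all 8 samples, and the most filled have 6 samples, 1 region of H19-Igf2 and 1 of Dlk1-Meg3.

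Over the 3 intervals, the peaks were ordinary in strength and not widely shared. The median member peak stood at the 44.7th percentile of its list by score, and 30 of 79 lay above the median score of their list. Member peaks were 366 to 2683 bp wide, and 41 of 79 were wider than the median of their list. Of the 43 merged regions, 27 had a peak in 1 sample only, where 46.7% of all regions did. A peak in 4 or more samples was found in 6 of 43 regions (22.5% of all regions) and in 6 or more in 2 of 43 (8.52%). None had a peak in all 8 samples (1.31%). None had a peak in all 4 young and no aged samples (0.894%), in all 4 aged and no young samples (0.00957%), in all 4 control and no enriched samples (0.209%) or in all 4 enriched and no control samples (0.014%). In young mice 1 region was called in each control list and no enriched list (2.78%), chr12:110817460-110818829 of Dlk1-Meg3, with scores of 51.7 and 52.9. The reverse pattern (2.13%) also held for 1 region, the third of the H19-Igf2 neighbours.

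Set against all autosomal windows of the same length, H19-Igf2 and Dlk1-Meg3 lay above the middle. The H19-Igf2 interval, with 25 peaks over the 8 lists, had more than 70.9% of 18370 windows of 130 kb (median 6). The Dlk1-Meg3 interval, with 53, had more than 62.9% of 6809 windows of 350 kb (median 24). Peaks around H19-Igf2 were uneven, with 47 in the flank before the interval and 1 in the flank after it. Around Dlk1-Meg3 there were 30 before and 57 after. No interval had a peak across its bounds. The members nearest a bound lay 4805 bp inside the start of Dlk1-Meg3 and 5573 bp inside its end, and the closest peak outside lay 5264 bp before that start.

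**Figure D4:**
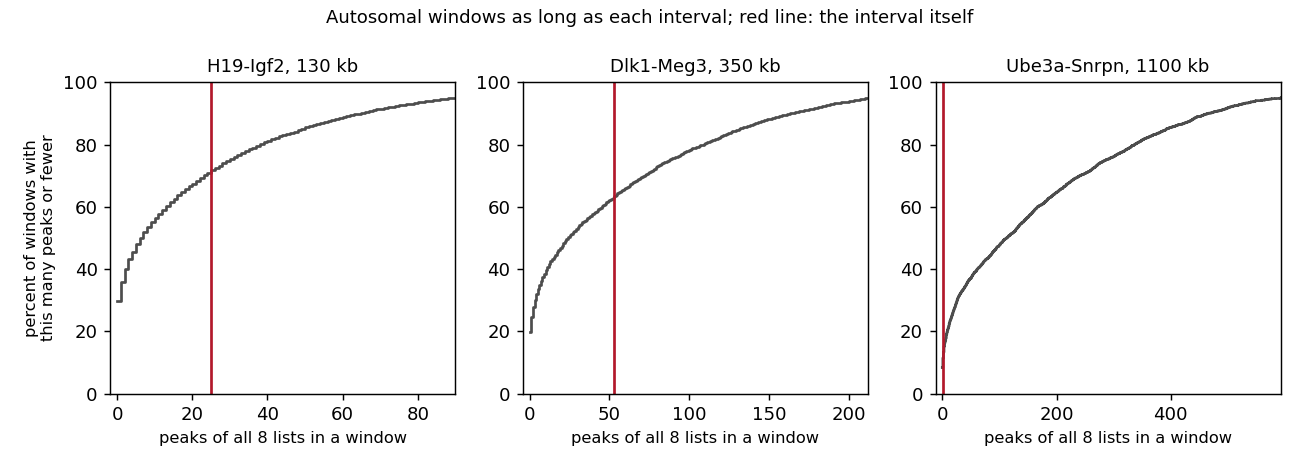
Cumulative percent of autosomal windows (vertical axis) against the number of peaks of all 8 lists in a window (horizontal axis, to the 95th percentile), for windows as long as each interval, which is marked by the red line. The intervals hold 25, 53 and 1 peaks, beside medians of 6, 24 and 113.

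A limma model over all 1 Mb windows with a mean of at least 5 peaks allowed housing to be tested within each age. It used the log2 of each window's share of the list, with 1 peak added to each count, and 1 spread shared by the 4 groups. The H19-Igf2 interval lies in the window at 149 to 150 Mb of chromosome 7, where it contributed 25 of 194 peaks. This window had 35 and 26 peaks in aged control and 13 and 8 in aged enriched lists, and 24 and 31 in young control and 24 and 33 in young enriched lists. Per 10000 peaks these were 5.91 and 6.84 in aged control, 5.09 and 2.59 in aged enriched, 5.49 and 3.93 in young control, and 4.17 and 5.55 in young enriched lists. Both aged enriched values lay below both aged control values, but aged enriched replicate 1 lay within the range of the young lists. In how many other windows these 2 groups do not overlap was not counted. The log2 difference of aged enriched and aged control samples was −0.72 ± 0.29 SE, which did not pass (limma adjusted p = 0.138), and in equally long lists it was −0.31 (limma adjusted p = 0.636). Without aged enriched replicate 1 the window passed (−1.17 ± 0.30 SE, limma adjusted p = 0.00349), in a fit that called 293 of 1563 windows (18.7%). Without aged enriched replicate 2 the difference was −0.26 (limma adjusted p = 0.616), where 5.86% of windows were called. The window at 110 to 111 Mb of chromosome 12 holds 94.3% of the Dlk1-Meg3 interval. It had 312 peaks over the 8 lists, beside 53 in the whole interval, so most of them lay outside the interval. Lists had 48 and 35 peaks there in aged control and 13 and 23 in aged enriched samples. Per 10000 peaks these were 8.10 and 9.21 in aged control and 5.09 and 7.46 in aged enriched samples. The log2 difference was −0.44 ± 0.22 SE (limma adjusted p = 0.215), −0.65 in equally long lists (limma adjusted p = 0.0913) and −0.69 without aged enriched replicate 2 (limma adjusted p = 0.0590). Without aged enriched replicate 1 it was −0.19 (limma adjusted p = 0.587). Over all 1548 windows tested the median difference was 0.11, and 56 (3.62%) were called in this comparison with all samples.

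In young mice these windows had log2 differences between enriched and control samples of 0.051 ± 0.29 SE on chromosome 7 and −0.10 ± 0.22 SE on chromosome 12 (limma adjusted p = 0.996 for both). Between ages they were 0.065 ± 0.20 SE (limma adjusted p = 0.933) and −0.085 ± 0.16 SE (limma adjusted p = 0.877), aged minus young. In each of these comparisons limma called 0 of 1548 windows (0%), with 15 and 149 at an unadjusted p under 0.05. Directions of these small differences turned under some settings. The Ube3a-Snrpn windows could not be tested, since the one at 66 to 67 Mb had a mean of 0.75 peaks per list and the one at 67 to 68 Mb had none.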

How the data were processed

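The deposited files are 8 peak lists, 1 per sample, each giving a chromosome, start, end, peak name and score. CASAVA 1.4, Bowtie 0.12.9, MACS 1.4.2 and the build mm9 are named per the submitters' processing notes. Nothing used here gives the caller settings, background library or read numbers. The score is the authors' deposited value for each peak and was used only to rank or filter peaks within 1 list. Coordinates are counted from 1.

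Peaks overlapping the intervals were counted and merged with Python 3.11.15. Exact permutation tests compared 4 samples with 4 (70 assignments), with Benjamini-Hochberg adjustment over 12 tests. Window counts, by peak midpoint, were fitted with limma 3.58.1 (R 4.3.3), with an intensity trend and Benjamini-Hochberg adjustment, at a threshold of 0.05. The permutation test was tried on made-up values. The limma fit was tried on simulated counts, which had no spread between replicates beyond that of counting. The members, lists and tests were chosen with earlier results of these data known. The regions named are the up to 5 most shared per interval (ties by mean score percentile), the widest, those separating groups as described and the longest stretch without peaks. Regions called in a whole young group and not in the other young group, and those that end the intervals, were named after their values were seen. Alternatives were a score of at least 100, lists cut to 25548 peaks, other windows, pseudocounts, filters and merging, and leaving out samples. No sequence of the peaks was used, since no mm9 genome was at hand.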

Additional observations from a re-analysis of the deposited data

Results flagged for a closer look

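Outlying samples were looked for with Dixon's test at 95% in 26 groups of values, of which chance flags about 1 in 20. Over all 8 samples, young control replicate 2 stood apart in coverage of the Dlk1-Meg3 interval, with 4.06%. Its list was also the longest, with 78980 peaks.

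At Ube3a-Snrpn, young enriched replicate 1 stood apart among young, enriched and all samples, with 0.174 peaks per 10000 and 0.0522% of the interval covered. All other samples were at 0 there, so a single peak was enough.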

How the results depend on the processing

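With a lowest adjusted p of 0.343 for 1 test alone, the 12 interval tests could hardly pass, and that none did, with all samples or under any alternative run, shows no stability (a score of at least 100, equally long lists, membership by midpoint, leaving out 1 sample, or permutation within replicate number). Of their 138 values under alternatives, 6 had the opposite direction, but many of the 138 could not turn. Membership by midpoint and permutation within replicate number left every difference unchanged, and the Ube3a-Snrpn values rested on 1 peak at most. The 138 is thus no measure of how steady the directions are. The age difference in H19-Igf2 coverage was −0.0277 points with a score of at least 100, and ran from −0.589 to 0.895 leaving out 1 sample. That in Dlk1-Meg3 coverage was 0.0223 points in equally long lists, and the age difference per 10000 peaks there ran from −0.125 to 0.272 leaving out 1 sample. The cause was not tested.

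With a score of at least 100 the regions numbered 3, 8 and 0 at H19-Igf2, Dlk1-Meg3 and Ube3a-Snrpn, and in equally long lists 12 at Dlk1-Meg3 and 0 at Ube3a-Snrpn, because fewer peaks were used. Of all windows, 56 were called by limma between aged enriched and aged control samples. This became 0 with a score of at least 100, with windows of 250 kb and with the aged groups fitted alone, 11 after quantile normalization, 21 and 152 with pseudocounts of 0.25 and 4 peaks, and 111 in equally long lists. Leaving out 1 sample it ran from 0 (without aged control replicate 2) to 293 (without aged enriched replicate 1), with 7 to 13 without any 1 young sample, 21 without aged control replicate 1 and 91 without aged enriched replicate 2. Between ages it was 2 after quantile normalization and 2 with a pseudocount of 4, from 0 to 103 leaving out 1 sample (103 without aged enriched replicate 2, 10 without aged enriched replicate 1 and 1 without young control replicate 2), and 1 with the replicate block.

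The labels do not say what samples of the same replicate number share. Correlations of their deviations from the group means ran from −0.135 to 0.0958 over 6 pairs of groups, which does not settle it. With the replicate block, limma called 73 windows between aged housing groups, and the chromosome 7 window at 149 Mb had an adjusted p of 0.116. The log2 difference of that window in young housing was −0.80 with a score of at least 100 and −0.066 in equally long lists, and between ages −0.12 in equally long lists. In the chromosome 12 window at 110 Mb it was 0.12 in young housing in equally long lists, and 0.47 between ages with a score of at least 100. Leaving out 1 sample, the chromosome 7 window ran from −0.20 to 0.30 in young housing and from −0.16 to 0.29 between ages. The chromosome 12 window ran from −0.30 to 0.092 and from −0.21 to 0.042. The unknown depth of the lists limits every count here.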
